A study of Homo sapiens with 6 samples.

Results

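LRRC75A-AS1 is a long noncoding RNA gene on chromosome 17, now also named SNHG29, and 5 of its transcripts were measured in a normal lung epithelial cell line and in a lung adenocarcinoma cell line. The members were all the annotated transcripts whose symbol, without the isoform number, was LRRC75A-AS1 in the deposited table of lncRNAs. The transcripts of that table had been selected on the authors' p-value and fold change between the same lines in the same samples. They made up 5 of its 1437 transcripts, and 5 of the 30 transcripts that GENCODE release 29 gives for the gene. The other 25 annotated transcripts were not analysed here, so every share below is a share of these 5 and not of the whole gene. The normal line is HBE, spelled HEB in some labels, and the cancer line is A549. Each line gave 3 samples without any treatment. The medium was RPMI-1640 for HBE and DMEM for A549, both with serum and antibiotics, so medium and line cannot be told apart. Separate cultures are not stated for the samples of a line, and the spread between them may be technical.

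Small nucleolar RNA (snoRNA) host genes carry snoRNAs inside their introns. The intron is cut out of the precursor during splicing and trimmed to the mature snoRNA, and the spliced exons form the host RNA. The snoRNAs of LRRC75A-AS1 are SNORD49B, SNORD49A and SNORD65, of the C/D box class that guides ribose methylation, mainly of ribosomal RNA. A transcript that keeps such an intron carries the snoRNA sequence within an exon, and cannot also have released that snoRNA by splicing.

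The gene spans 16438822 to 16478678 on the plus strand of chromosome 17 (GRCh38), and its transcripts in the table differ in the introns they keep and in where they start and end. LRRC75A-AS1-219 (ENST00000578757, 16439038 to 16441209) has 4 exons and 920 bases and is annotated as a retained-intron transcript. It keeps the intron from 16439704 to 16440184, which holds SNORD49A (16440036 to 16440106). Its last exon runs into the intron that holds SNORD65, from 16441131 to 16441367, and ends there before SNORD65 itself. LRRC75A-AS1-201 (ENST00000460249, 16439327 to 16441566) has 4 exons and 773 bases and keeps the intron from 16441131 to 16441367, which holds SNORD65 (16441226 to 16441298). LRRC75A-AS1-205 (ENST00000475953, 16439045 to 16442028) has 5 exons and 1201 bases, and keeps the first intron, from 16439061 to 16439326, in which no snoRNA is annotated. LRRC75A-AS1-214 (ENST00000487066, 16438975 to 16441738) has 6 exons and 763 bases and begins furthest upstream of the 5. It keeps none of the introns that other annotated transcripts of the gene splice out whole. LRRC75A-AS1-223 (ENST00000581361, 16439037 to 16470350) has 7 exons and 843 bases, and joins the first exons to distal exons across an intron of 20639 bases that holds SNORD65. SNORD49B (16439505 to 16439576) lies in an intron of all 5.

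**Figure D1:**
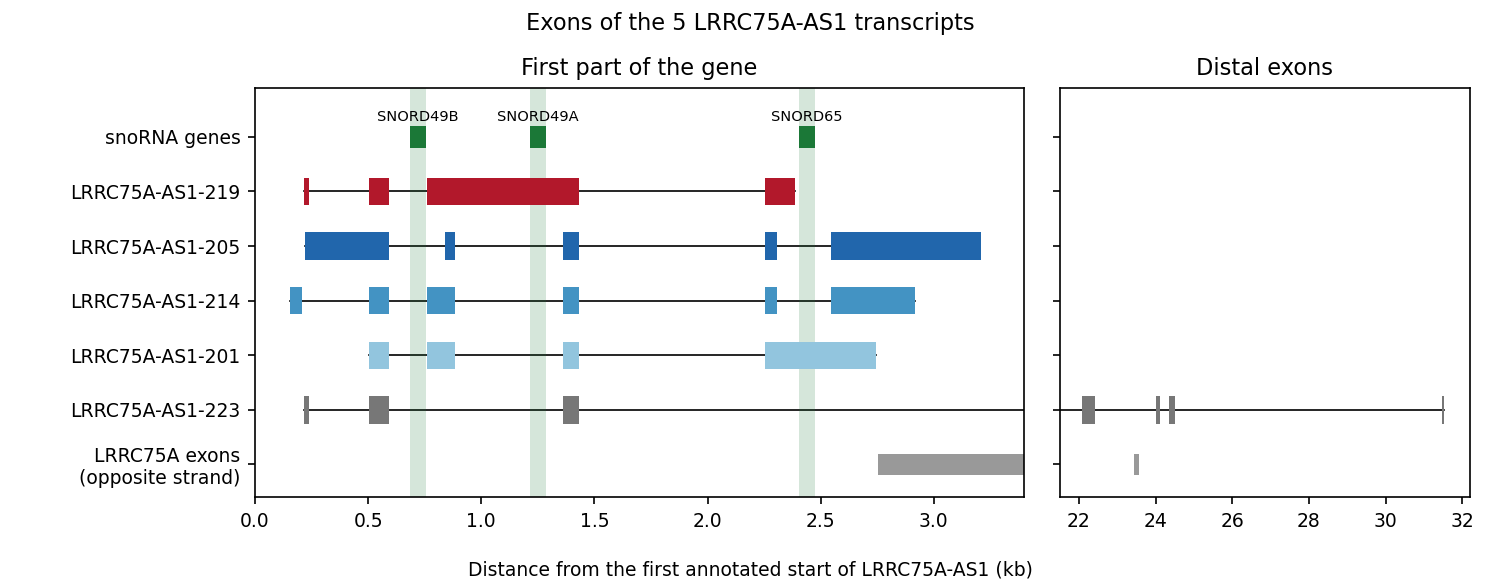
Exons (boxes) and introns (lines) of the 5 LRRC75A-AS1 transcripts, by distance in kilobases from the first annotated start of the gene, with the 3 snoRNA genes in green and the exons of the opposite-strand gene LRRC75A in grey. The right panel shows the distal exons on another scale. SNORD49A falls inside an exon of LRRC75A-AS1-219 alone and SNORD65 inside an exon of LRRC75A-AS1-201 alone.

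The stretches that tell the 5 transcripts apart were read from the GENCODE release 29 transcript sequences (GRCh38, plus strand, 5′ to 3′). The first 60 bases of each are shown because they separate the starts and the kept first intron, with capitals for bases held by that transcript and by no other of the 5.
LRRC75A-AS1-214: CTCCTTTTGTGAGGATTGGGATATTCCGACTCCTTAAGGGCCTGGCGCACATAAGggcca
LRRC75A-AS1-223: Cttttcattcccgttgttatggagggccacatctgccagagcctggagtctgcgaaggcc
LRRC75A-AS1-219: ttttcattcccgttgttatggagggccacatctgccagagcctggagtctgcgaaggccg
LRRC75A-AS1-205: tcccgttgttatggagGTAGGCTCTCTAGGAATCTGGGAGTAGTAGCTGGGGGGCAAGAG
LRRC75A-AS1-201: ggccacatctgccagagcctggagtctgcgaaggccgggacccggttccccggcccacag
In LRRC75A-AS1-205 the capitals begin with the GT that opens the kept intron, where LRRC75A-AS1-219 and LRRC75A-AS1-223 go on with the next exon.

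The kept snoRNA introns are shown next, since they set LRRC75A-AS1-219 and LRRC75A-AS1-201 apart from the other members. After the exon that precedes SNORD49A, LRRC75A-AS1-219 reads on into the intron and LRRC75A-AS1-214 is spliced, and after the exon that precedes SNORD65 the same holds for LRRC75A-AS1-201 and LRRC75A-AS1-205. Capitals mark the bases after the exon end.
LRRC75A-AS1-219: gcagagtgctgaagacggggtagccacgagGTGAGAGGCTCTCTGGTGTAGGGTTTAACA
LRRC75A-AS1-214: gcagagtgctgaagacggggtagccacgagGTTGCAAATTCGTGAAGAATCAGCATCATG
LRRC75A-AS1-201: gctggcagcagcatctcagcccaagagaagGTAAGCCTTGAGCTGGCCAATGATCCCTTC
LRRC75A-AS1-205: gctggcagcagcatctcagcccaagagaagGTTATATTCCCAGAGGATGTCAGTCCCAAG
The snoRNA itself, in capitals with 20 bases of the kept intron on each side, was found whole in both.
LRRC75A-AS1-219 with SNORD49A: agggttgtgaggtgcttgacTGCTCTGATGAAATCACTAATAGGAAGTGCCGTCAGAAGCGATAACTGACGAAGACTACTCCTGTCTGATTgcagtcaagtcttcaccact
LRRC75A-AS1-201 with SNORD65: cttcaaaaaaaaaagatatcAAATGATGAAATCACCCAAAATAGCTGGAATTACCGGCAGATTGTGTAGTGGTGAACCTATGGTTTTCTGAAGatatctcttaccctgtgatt
The distal splice of LRRC75A-AS1-223 is shown with the bases of the distal exon in capitals.
LRRC75A-AS1-223: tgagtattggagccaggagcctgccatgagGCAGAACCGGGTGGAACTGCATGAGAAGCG

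HBE and A549 differed in the LRRC75A-AS1 transcript that held most of the counts. In HBE it was LRRC75A-AS1-219, which keeps SNORD49A, with 64.8% ± 9.93 of the summed estimated counts (SD, n = 3). In A549 it was LRRC75A-AS1-205, which keeps the first intron and splices out all 3 snoRNAs, with 53.5% ± 9.59 (SD, n = 3). The authors chose the transcripts of the table for a difference between these lines on these same samples, so the levels, shares and fold changes are a description. The edgeR quasi-likelihood fit of all 1437 transcripts is given beside them for its fold changes, and its calls at an adjusted p of 0.05 are no independent evidence of a difference. It called all 5 members, 4 higher and 1 lower in A549, beside 99.9% of the whole table (47.6% higher and 52.3% lower). The ranges of the lines did not overlap for any of the 5, as for 99.2% of the table. The median log2 fold change, A549 over HBE, was 2.57 for the 5 and -2.004 for all 1437 transcripts. The table holds no transcript with an absolute deposited log2 fold change under 1.25. Its median therefore mainly shows that slightly more transcripts were lower than higher, and is not a common shift. In the authors' deposited table the p-values of the 5 ran from 1.36e-07 to 0.00143.

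LRRC75A-AS1-219 was the 1 member with a lower level in A549. Its estimated counts were 432, 554 and 754 for HBE replicates 1, 2 and 3, against 173, 151 and 194 for the A549 replicates in the same order. As counts per 1000000 of the library (CPM), it averaged 11.2 ± 3.82 CPM across the HBE samples against 3.06 ± 0.322 CPM across those of A549 (mean ± SD, n = 3 per line), 3.67-fold higher in HBE. Every HBE sample was above every A549 sample, and the A549 samples lay close together. Its log2 fold change was -1.87 (SE 0.51), and the fit no longer called it under 3 of the 4 alternatives scaled from the table, with -0.44 under DESeq2 size factors, -0.44 in the Wald test of DESeq2 and -0.66 under column totals. Under TMM factors over the table it was -1.33 and still called. The authors' deposited log2 fold change was -1.69. Each of the 4 alternatives was scaled over transcripts chosen for a difference between the lines. Unspliced precursor RNA and the annotated transcript cannot be told apart by reads over the kept intron.

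For LRRC75A-AS1-205 the counts were 243, 169 and 126 across HBE replicates 1, 2 and 3, against 586, 893 and 1952 across those of A549. The lines did not overlap, and A549 replicate 3 had more than the other A549 samples together. It averaged 3.38 ± 0.891 CPM across the HBE samples against 20.1 ± 12.2 CPM across those of A549 (SD, n = 3 per line), 5.96-fold higher in A549. The log2 fold change was 2.57 (SE 0.55), and 1.97 without A549 replicate 3, the sample with the highest count. It was 3.91 under DESeq2 size factors, 3.91 in the Wald test and 3.89 under column totals.

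LRRC75A-AS1-214, with every snoRNA intron spliced out and its own first exon, was counted 18, 29 and 45 times across the HBE samples against 232, 256 and 601 times across those of A549. A549 replicate 3 was again the highest. Its mean level was 0.597 ± 0.297 CPM for HBE against 6.39 ± 3.50 CPM for A549 (SD, n = 3 per line), 10.7-fold higher in A549. The log2 fold change was 3.42 (SE 0.62), and 2.87 without A549 replicate 3. Under the same scalings it was 4.86, 4.86 and 4.42.

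LRRC75A-AS1-201, which keeps SNORD65, was counted 113, 55 and 119 times across the HBE samples against 320, 357 and 331 times across those of A549. Here A549 replicate 3 did not stand apart. Its mean level was 1.83 ± 0.693 CPM for HBE against 5.97 ± 0.410 CPM for A549 (SD, n = 3 per line), 3.27-fold higher in A549, with a log2 fold change of 1.71 (SE 0.54). It was 3.10 under DESeq2 size factors, 3.11 in the Wald test and 3.01 under column totals.

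LRRC75A-AS1-223, the distal transcript, was the rarest, with 2, 0 and 1 counts across the HBE samples against 20, 17 and 10 across those of A549. With 3 counts in all of HBE, the ratio of A549 to HBE was 14.6, with an exact 95% binomial interval of 4.70 to 73.3 that covers counting error only. It was the 1 member of which A549 replicate 3 had the fewest counts in its line.

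**Figure D2:**
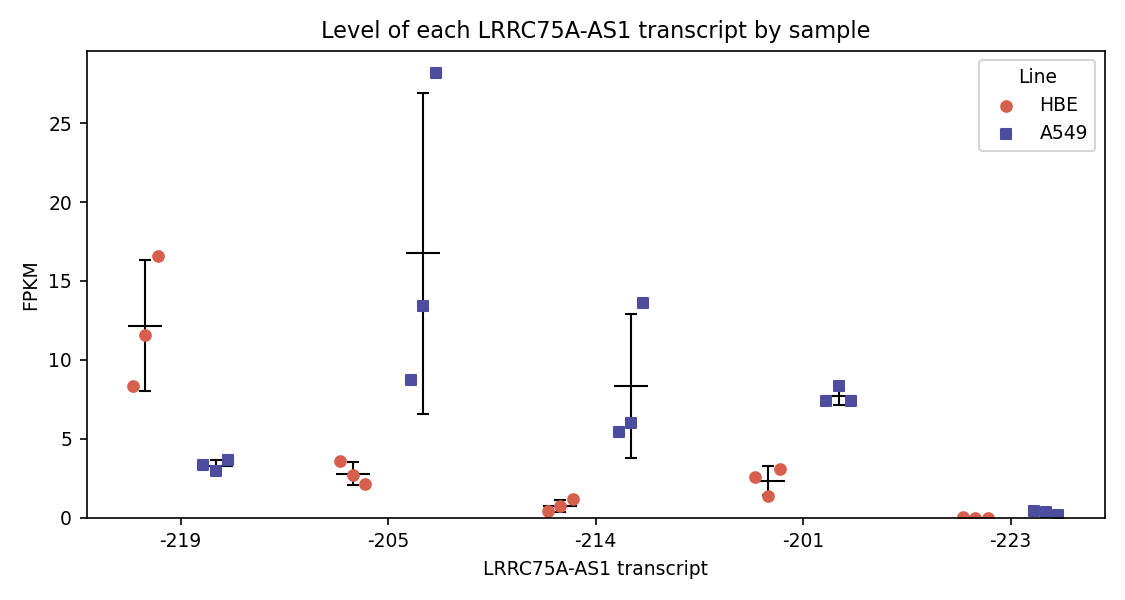
FPKM of each LRRC75A-AS1 transcript in every sample, with the mean (wide bar) and SD of the 3 samples of a line. LRRC75A-AS1-219 is highest in HBE, and the 3 A549 samples of LRRC75A-AS1-205 spread from 8.71 to 28.2 FPKM.

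The order of the transcripts, which have different lengths, was read from FPKM, the authors' value per kilobase of transcript and per 1000000 fragments. In HBE, LRRC75A-AS1-219 led at 12.2 ± 4.15 FPKM, followed by LRRC75A-AS1-205 at 2.80 ± 0.743 and LRRC75A-AS1-201 at 2.36 ± 0.896 (SD, n = 3 each). The last 2 overlapped, and LRRC75A-AS1-214 followed at 0.770 ± 0.390 FPKM and LRRC75A-AS1-223 at 0.0170 ± 0.0189 FPKM (SD, n = 3 each). In A549, LRRC75A-AS1-205 stood at 16.8 ± 10.2 FPKM, LRRC75A-AS1-214 at 8.37 ± 4.58 and LRRC75A-AS1-201 at 7.71 ± 0.537 (SD, n = 3 each). Across samples the first overlapped the second, and the second the third. Within each A549 sample LRRC75A-AS1-205 was the highest, while LRRC75A-AS1-214 was above LRRC75A-AS1-201 in replicate 3 only. LRRC75A-AS1-219 stood behind these in A549, at 3.31 ± 0.351 FPKM, below every value of the first 3, and LRRC75A-AS1-223 last at 0.318 ± 0.111 FPKM (SD, n = 3 each). The transcript that led in HBE was thus behind 3 others in A549, while LRRC75A-AS1-223 was last in both.

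Shares within a sample do not depend on how libraries are scaled to each other. LRRC75A-AS1-219 made up 53.5%, 68.6% and 72.2% of the summed counts in HBE replicates 1, 2 and 3, with exact 95% binomial intervals of 49.96% to 56.9%, 65.3% to 71.8% and 69.3% to 74.9%. In A549 its shares were 12.998%, 9.02% and 6.28%, with intervals of 11.2% to 14.9%, 7.69% to 10.5% and 5.45% to 7.20%. The lowest HBE share was above the highest A549 share. The intervals treat the estimated counts as reads and cover counting error only. They leave out the error of dividing shared reads among the transcripts. The shares of LRRC75A-AS1-205 were 30.1%, 20.9% and 12.1% in HBE and 44.0%, 53.3% and 63.2% in A549. Within a line too, the sample with the larger share of 1 of these 2 transcripts had the smaller share of the other, and both are shares of 1 sum. The ratio of LRRC75A-AS1-205 to LRRC75A-AS1-219 counts was 0.562, 0.305 and 0.167 across HBE replicates 1, 2 and 3, against 3.39, 5.91 and 10.1 across those of A549. It was below 1 in every HBE sample and above 1 in every A549 sample.

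The share of LRRC75A-AS1-214 was 3.38% ± 1.06 in HBE against 17.4% ± 2.09 in A549 (SD, n = 3 each), with no overlap between the lines. The share of LRRC75A-AS1-201 was 10.7% ± 3.63 in HBE against 18.7% ± 7.04 in A549 (SD, n = 3 each). Its lines overlapped in share although not in level, because A549 replicate 3 had a share of 10.7% (exact 95% binomial interval 9.65% to 11.9%). LRRC75A-AS1-223 held 0.114% ± 0.125 in HBE against 0.947% ± 0.592 in A549 (SD, n = 3 each).

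**Figure D3:**
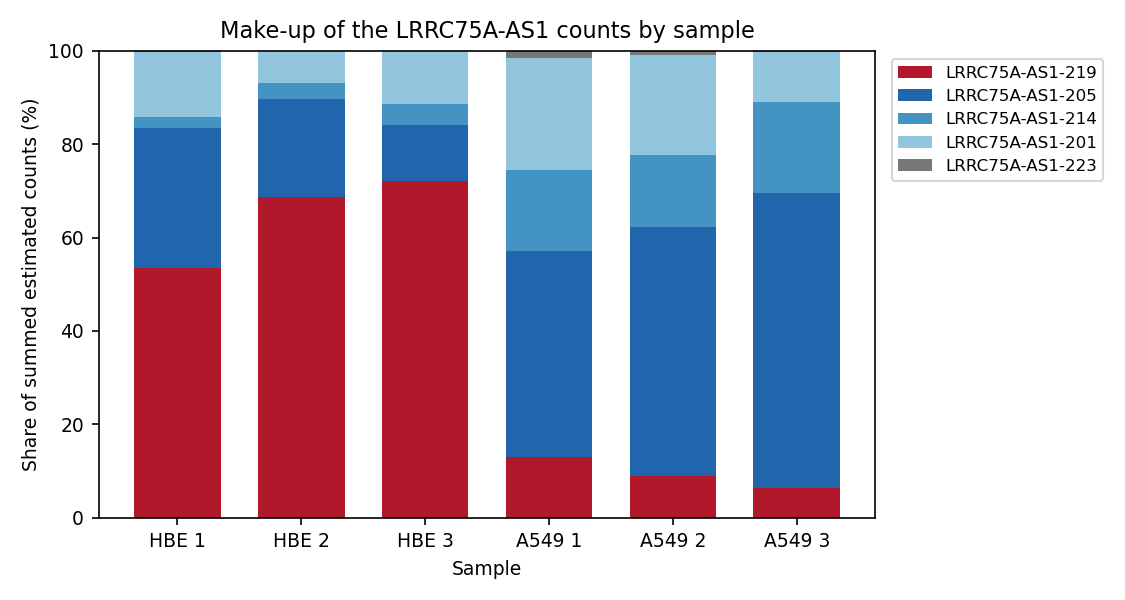
Share of each transcript in the summed estimated counts of the 5 LRRC75A-AS1 transcripts, as stacked bars that add to 100% in each of the 6 samples. The bar of LRRC75A-AS1-219 covers 53.5% to 72.2% in HBE and 6.28% to 12.998% in A549.

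The 2 transcripts with a snoRNA in an exon, LRRC75A-AS1-219 and LRRC75A-AS1-201, went in opposite directions, yet together they were the larger part in HBE and the smaller part in A549. They held 67.5%, 75.5% and 83.5% of the counts of HBE replicates 1, 2 and 3, against 37.0%, 30.3% and 17.001% for A549. By level their sum was 13.04 ± 4.15 CPM for HBE against 9.02 ± 0.191 CPM for A549 (SD, n = 3 per line), and the 3 A549 samples, at 8.81, 9.16 and 9.10 CPM, were just below the lowest HBE sample, at 9.69 CPM. The direction of this sum depended on the scaling, with a log2 ratio of A549 over HBE of -0.53 by recovered library sizes, 0.90 under DESeq2 size factors, 0.72 under column totals and 0.0013 under TMM. The lines overlapped under column totals and TMM. Those scalings and the DESeq2 size factors were computed over transcripts all chosen for a difference between the lines. The recovered library sizes do not rest on that choice. The 3 transcripts with no snoRNA in an exon were higher in A549 under each of these scalings and summed to 3.99 ± 0.616 CPM across the HBE samples against 26.8 ± 15.6 CPM across those of A549 (SD, n = 3 per line). In A549 they reached 15.0, 21.0 and 44.4 CPM in replicates 1, 2 and 3, so by recovered library sizes nearly all of the spread among the A549 samples lay in the spliced-out class. In HBE, by the same library sizes, the spread lay in the class that keeps a snoRNA, with 9.69, 11.7 and 17.7 CPM, against 4.68, 3.82 and 3.48 CPM for the rest. Which snoRNA was kept differed too, because SNORD49A was in the larger of these transcripts in HBE and SNORD65 in the larger of them in A549. Among all 30 annotated transcripts of the gene, 2 hold SNORD49A, 3 hold SNORD65 and 2 hold SNORD49B in an exon, and 6 hold at least 1 of them.

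**Figure D4:**
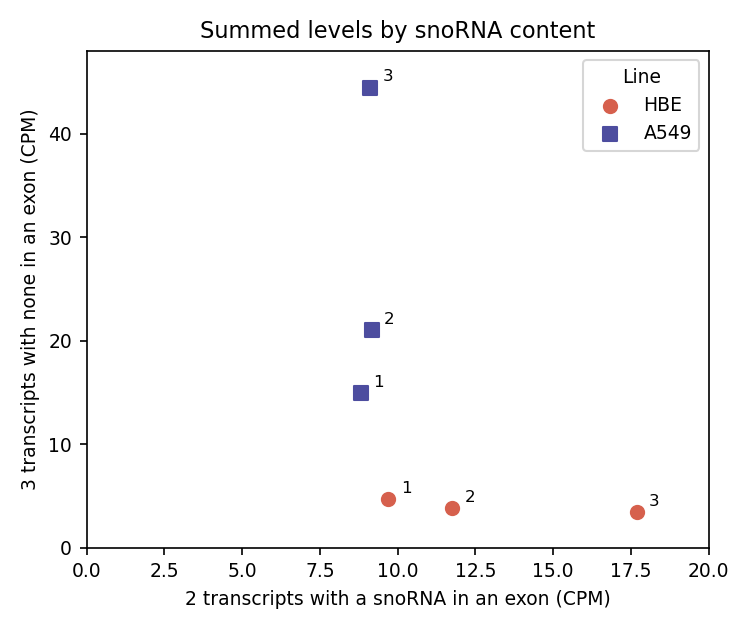
Summed CPM of the 2 transcripts with a snoRNA in an exon (horizontal axis) against that of the 3 without (vertical axis), 1 point per sample with its replicate number. The A549 samples stand at 8.81 to 9.16 CPM on the horizontal axis and rise to 44.4 CPM on the vertical axis, while the HBE samples stay between 3.48 and 4.68 CPM on the vertical axis. CPM uses the recovered library sizes, and on the horizontal axis the order of the lines turns under DESeq2 size factors.

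The sum of the 5 transcripts was 14.4, 15.6 and 21.2 CPM in HBE replicates 1, 2 and 3 and 23.8, 30.2 and 53.6 CPM in A549. The lines did not overlap, but the gap from the highest HBE sample to the lowest A549 sample was small beside the spread within A549. The sum rested on 808, 807 and 1045 counts in HBE and on 1331, 1674 and 3088 in A549. Its log2 ratio of A549 over HBE was 1.07, or 0.66 without A549 replicate 3. It was 2.48 with DESeq2 size factors and 2.22 with column totals, both over the table. In bulk samples, a change in all cells and a change in the number of cells that use a transcript cannot be told apart.

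The transcripts share much of their sequence, and StringTie, named in the submitters' processing notes, estimates transcript levels from reads that several transcripts can explain. Within the 5, 481 of the 920 bases of LRRC75A-AS1-219 lie in no other member, which is the SNORD49A intron, and 556 of the 1201 bases of LRRC75A-AS1-205 do. Of those 556 bases, 266 are the kept first intron. The rest are at the 3′ end of LRRC75A-AS1-205, past the end of LRRC75A-AS1-214, and all lie opposite an exon of the gene LRRC75A. The bases in no other member numbered 158 for LRRC75A-AS1-201, only the 55 of its first exon for LRRC75A-AS1-214, and 663 for LRRC75A-AS1-223. Other annotated transcripts of the gene hold some of these bases as well. Of near-identical sequence outside the gene, LRRC75A-AS1-219 had the 71 bases of SNORD49A and LRRC75A-AS1-201 the 73 bases of SNORD65, the snoRNA genes at the same place. The protein-coding gene LRRC75A (16441577 to 16492153) lies on the opposite strand, and its exons cover 452 bases at the 3′ end of LRRC75A-AS1-205 and 162 bases of LRRC75A-AS1-214. Strand use in the counting was not given in the sources used here, and LRRC75A itself was not analysed here, so its part in these 2 was not tested. Together they were at 3.97 ± 0.605 CPM for HBE against 26.5 ± 15.7 CPM for A549 (SD, n = 3 per line). The other members lie opposite no exon of LRRC75A, and of these LRRC75A-AS1-201 and LRRC75A-AS1-223 were higher and LRRC75A-AS1-219 lower in A549. Their levels do not show where the reads over LRRC75A-AS1-205 and LRRC75A-AS1-214 came from.

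The difference in transcript use was set beside that of other genes by the moved share, the part of a gene's counts that would have to pass from some transcripts to others for the lines to have equal shares. It was 55.3% for LRRC75A-AS1 from counts and 56.3% from FPKM, and 40.5% to 66.5% over the 9 pairs of an HBE and an A549 sample. In the line means LRRC75A-AS1-219 alone had a lower share in A549, so there the moved share equals the drop in its share. Of the 43 annotated genes with a mean of at least 1 CPM in both lines, 8 had at least 2 transcripts in the table. Their median moved share was 15.1%, and LRRC75A-AS1 had the highest value of the 8. The whole table held 58 genes with at least 2 transcripts, and the moved share was not computed for those below that level. Among the 8, CTBP1-DT was the 1 other gene with transcripts in both directions. Its moved share was 24.8% from counts and 55.0% from FPKM, so that by FPKM it lay close to LRRC75A-AS1. CTBP1-DT-205 was at 6.05 ± 0.408 CPM for HBE against 0.925 ± 0.748 CPM for A549, and CTBP1-DT-204 was at 0.343 ± 0.471 CPM for A549 (SD, n = 3 each) with no HBE count. The table holds only transcripts that the authors chose, so the moved share of a gene leaves out its other transcripts. That choice, for a difference between the lines, favours a large moved share in genes with transcripts in both directions. It favours a small one in the others. The rank of LRRC75A-AS1 and the median of the 8 are therefore a description only.

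**Figure D5:**
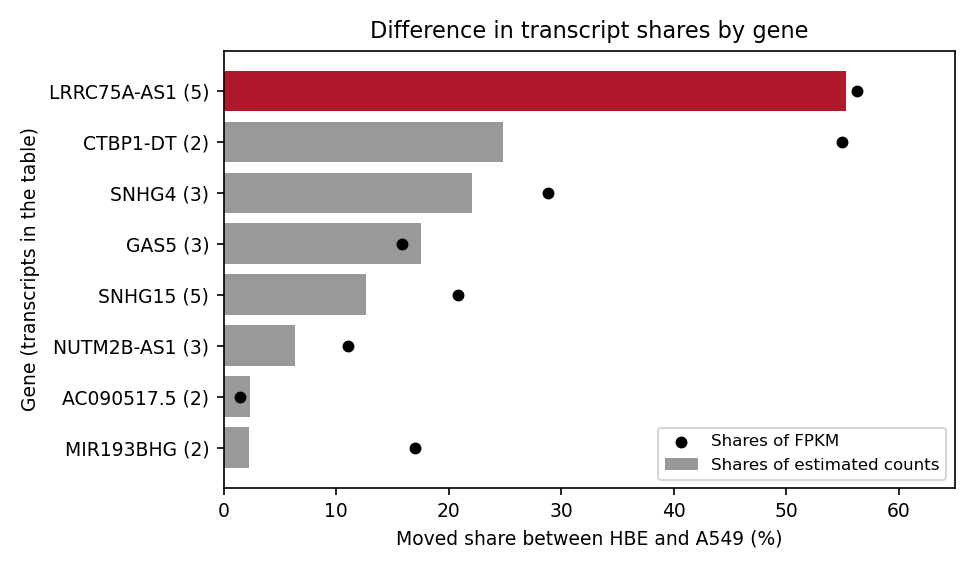
Moved share between HBE and A549, in percent, for the 8 genes with at least 2 transcripts in the table and a mean of at least 1 CPM in both lines, from estimated counts (bars) and from FPKM (points). LRRC75A-AS1 stands at 55.3% and 56.3%, and CTBP1-DT at 24.8% and 55.0%.

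Among genes named as snoRNA hosts (SNHG names, GAS5, ZFAS1, DANCR and EPB41L4A-AS1) the table held 22 other transcripts of 8 genes, 15 higher and 7 lower in A549, with a median log2 fold change of 2.34. In the table as a whole 47.6% were higher in A549. The 4 with the highest mean level were SNHG15-202, SNHG4-202, SNHG14-226 and SNHG15-203. Of the 22, 7 had an annotated snoRNA in an exon. The 4 of these that were higher in A549 all belonged to SNHG14, which had no count in HBE in any of them. The 3 that were lower were SNHG15-202 (SNORA9), SNHG25-202 (SNORA50C) and ZFAS1-210 (SNORD12). ZFAS1 was the 1 of these 8 genes with transcripts on both sides. ZFAS1-210, which keeps SNORD12, was at 0.416 ± 0.281 CPM for HBE against 0.0416 ± 0.0275 CPM for A549, and ZFAS1-204, with no snoRNA in an exon, was at 0.260 ± 0.1497 CPM for HBE against 1.35 ± 0.454 CPM for A549 (SD, n = 3 each). Summed over a line, ZFAS1-210 and ZFAS1-204 had 64 and 40 counts in HBE against 7 and 229 in A549, so the larger of these 2 differed between the lines. Both were chosen for a difference between the lines, which favours such a change of order. Transcripts of ZFAS1 outside the table were not analysed, so its leading transcript is not known. ZFAS1 was below the level set for the moved share, and was singled out after its values were seen.

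By the pattern of the summed level over the 6 samples, and among the 43 annotated genes with a mean of at least 1 CPM in both lines, the genes most like LRRC75A-AS1 were AC087482.1, DHRS4-AS1 and AC007996.1, with a Pearson r of 0.855, 0.803 and 0.801 on log2(CPM + 1). The samples fall into the 2 lines and share their libraries, so these values mostly describe the step between the lines. AC087482.1 had 1.05 CPM in HBE and 2.26 CPM in A549, DHRS4-AS1 2.89 and 8.88 CPM, and AC007996.1 1.04 and 17.3 CPM. A549 replicate 3 was the highest A549 sample for AC087482.1, as for the LRRC75A-AS1 sum, and replicate 2 was the highest for the other 2 genes. The 1 other annotated transcript of the table within 500 kb of the gene was AC022596.2-201 (16861146 to 16864223), with 56 counts over the HBE samples and 1 in A549, opposite in direction to the LRRC75A-AS1 sum.

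Of cell type markers, only lncRNAs could be looked up, in a table of transcripts chosen for a difference between these lines. A marker equal in both lines would be missing from it, so the identity of the lines could not be checked. MIR205HG, of airway epithelium, was at 76.2 to 213 CPM in HBE and at 0 in A549. SFTA1P, the 1 alveolar and club marker of 2 that the table held, was at 2.40 to 6.64 CPM in HBE and at 0 in A549. The mesenchymal markers (3 of 4 genes in the table) summed to 3.97 to 5.16 CPM in HBE and 1.43 to 1.89 CPM in A549, and the neural markers (2 of 3) to 0.836 to 2.65 CPM and 3.19 to 4.002 CPM. None of the 3 blood markers was in the table, which does not show that they were absent from the cells. The part of these differences in the LRRC75A-AS1 values was not tested.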

How the data were processed

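RNA of 6 samples, 3 of HBE and 3 of A549, was sequenced from libraries made with an mRNA kit, per the labels' protocols. The submitters' processing notes name HISAT2, StringTie, DESeq2 and GRCh38 and no versions. For each transcript the authors deposited estimated counts and FPKM values by sample, with their p-value and log2 fold change of A549 over HBE. The adjustment of that p-value was not given in the sources used here. Deposited p-values reached 0.00997 at most, and absolute log2 fold changes were 1.25 or more.

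The deposited estimated counts equalled FPKM times GENCODE transcript length times library size, rounded up, for 99.4% to 99.8% of nonzero annotated values, and all were within 1 count. The library sizes solved from this, 49376413 to 57664347, were used for CPM and as the only scaling in edgeR 4.0.16 (R 4.3.3). The quasi-likelihood test was fitted to all 1437 transcripts with Benjamini-Hochberg adjustment at 0.05, no filter and no replicate block. It was also run on simulated counts in which most transcripts were unchanged. This table was chosen for differences, so that run does not bear on the calls given here. SE is the log2 fold change divided by the square root of F. 1 count was worth 0.0173 to 0.0203 CPM. Intervals are exact (Clopper-Pearson), with the estimated counts treated as reads, and leave out the error of dividing shared reads among transcripts. Counts of reads without molecular identifiers are not independent molecules. BLAST+ 2.17.0 searched all GENCODE transcripts for copies of at least 97% identity over at least 50 bases. Alternatives were other scalings, DESeq2 1.42.0, limma-voom (limma 3.58.1), a filter on low counts, FPKM shares and each sample left out.

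The members and lists were chosen with earlier results of these data known. The rule for named genes took all LRRC75A-AS1 transcripts, the 3 genes most alike in level among those with a mean of at least 1 CPM in both lines, up to 3 genes with both directions and the largest moved share, up to 4 transcripts of other snoRNA hosts by level, and all annotated transcripts of the table within 500 kb. CTBP1-DT was the 1 gene that met the rule for both directions.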

Additional observations from a re-analysis of the deposited data

How the results depend on the processing

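All 5 LRRC75A-AS1 transcripts kept their direction under every alternative run, and 4 or 5 were past the threshold. With DESeq2 size factors over the table, the DESeq2 Wald test and column totals, the count was 4, because LRRC75A-AS1-219 was not called. These scalings shifted the median log2 fold change of all transcripts by 0.86, 1.40 and 1.10, and TMM by 0.28. The log2 ratio of the summed level, 1.07, became 2.48 with DESeq2 size factors and 2.22 with column totals. For the transcripts with a snoRNA in an exon it turned from -0.53 to 0.90, 0.0013 and 0.72 with DESeq2 size factors, TMM and column totals, and for those without it rose from 2.75 to 4.10 and 4.01 with the first and last of these. These sums were rescaled after the data were seen. Shares need no scaling. As shares of FPKM, LRRC75A-AS1-205 held 43.6% and LRRC75A-AS1-214 22.2% in A549, against 53.5% and 17.4% of counts, and the other shares moved by less than 1 SD. With 1 sample left out, the log2 ratio of the sum ran from 0.66 to 1.30 (-0.71 to -0.25 for transcripts with a snoRNA in an exon, 2.17 to 3.04 for those without), the moved share from 51.6% to 61.0%, the share of LRRC75A-AS1-219 from 61.1% to 70.4% in HBE and from 7.65% to 11.0% in A549, and the share with a snoRNA in an exon, an alternative chosen after seeing the data, from 71.5% to 79.5% in HBE and from 23.7% to 33.7% in A549. With the replicate block in edgeR the count was again 5. No pairing of the samples by replicate number was seen. The correlation of deviations between equal numbers was 0.0376, -0.0863 and -0.149 over 296 transcripts, and not every sample correlated best with its own number. Counts of LRRC75A-AS1-223 in HBE, 3 in all, limit its ratio.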

Other observations

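Across the table, 12 annotated transcripts had an annotated snoRNA or small Cajal body RNA in an exon (LRRC75A-AS1-219 and LRRC75A-AS1-201 among them), and 7 of them were higher and 5 lower in A549. All of the higher ones but LRRC75A-AS1-201 were transcripts of SNHG14, AC124312.3 and AC124312.4, at 0 CPM in HBE, so the 7 are not 7 separate genes. The transcripts annotated as retained-intron numbered 33, with 14 higher and 19 lower in A549, beside 300 higher and 386 lower among all 688 annotated transcripts. LRRC75A-AS1-219 was 1 of the 33. These counts were chosen with the values in view.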
